A study of Mus musculus with 6 samples.

Results

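The receptor for interleukin-2 (IL-2) and its relatives are described here through 10 genes, led by Il2ra, in mouse dendritic cells grown from bone marrow. The genes were taken as a list of symbols: 7 receptor chains (Il2ra, Il2rb, Il2rg, Il4ra, Il7r, Il15ra, Il21r), the cytokine Il15, the kinase Jak3 and the transcription factor Stat5a. Of these 10, 8 had a probe set annotated with that symbol alone, exactly 1 probe set each, and 7 of the 8 passed a filter that removed dim genes, out of 13956 genes that passed it in the whole series. Il2rb lay below the filter and is given as values only. The probe set of Jak3 is annotated to a second gene as well and no probe set used here is annotated to Il2rg, so neither is reported.

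IL-2 family cytokines signal through shared receptor chains. The alpha chain encoded by Il2ra, CD25, raises the affinity for IL-2 but does not signal itself, while the beta chain Il2rb and the common gamma chain Il2rg carry the signal through the kinases JAK1 and JAK3 to STAT5. IL-15 uses the same beta and gamma chains with its own alpha chain, Il15ra, and dendritic cells are known for presenting IL-15 on Il15ra to neighbouring lymphocytes. Il4ra, Il7r and Il21r each pair with the common gamma chain to form the receptors for IL-4, IL-7 and IL-21. On dendritic cells CD25 is known as a surface protein of activated cells, which can hand IL-2 to T cells.

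The question behind the comparison was whether exposing skin to ultraviolet (UV) radiation alters dendritic cells later grown from marrow. All preparations came from female C57BL/6J mice that had been injected with 2000000 marrow cells from congenic B6.SJL-Ptprca donors, distinguishable by their CD45.1 alloantigen. The marrow donors were naive in the control group and UV irradiated in the other, with up to 8 kJ/m2 of broadband radiation on shaved back skin, and mice were 6 to 10 weeks old when irradiated. Recipient marrow was cultured for 5 days with 10 ng/ml of IL-4 and 10 ng/ml of GM-CSF, and CD11c+ cells were enriched with magnetic beads to above 95%. Both groups therefore grew in IL-4, the ligand of Il4ra, and in GM-CSF, whose receptor also signals through STAT5. How much of the cultured marrow descended from the donor is not stated in the labels, nor are the 3 preparations of each group said to come from separate recipients, so errors below measure only the spread between preparations, which may be technical.

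RNA of the 6 preparations was hybridised to 1 whole-transcript array each. The median log2 signal of an array was 7.16 to 7.23, and correlations between arrays over all probe sets were 0.995 to 0.997. The interquartile range of the signals was 3.61 to 3.68 on naive-donor arrays and 3.71 to 3.75 on UV-donor arrays, without overlap, and its part in the differences below was not tested beyond the renormalized fits. UV-donor replicate 1 stood farthest from the naive-donor arrays on the first principal component of all tested genes. The defining antigen Itgax (CD11c) had signals of 13.71 to 13.79 on the 6 arrays, the class II gene H2-Ab1 of 12.50 to 12.69, and the dendritic cell transcription factor Zbtb46 of 8.74 to 8.89. Flt3, a receptor of dendritic cell precursors, was below the filter for dim genes. That filter removed genes whose mean log2 signal over the 6 arrays was below 6.58, and the files give no detection call, so low signals cannot be told apart from background.

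Il2ra is located on chromosome 2, and a window around its annotated start site is shown because Il2ra was the 1 gene called of the 7 tested members. The window covers 250 bases before and 50 bases after the start of the RefSeq gene, chr2:11642542-11642841 on the plus strand of GRCm38.p6, written 5′ to 3′. Capitals mark bases that match GGGNNNNNCC, an outline of the binding site of NF-kB, a transcription factor known to act on Il2ra.

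Il2ra: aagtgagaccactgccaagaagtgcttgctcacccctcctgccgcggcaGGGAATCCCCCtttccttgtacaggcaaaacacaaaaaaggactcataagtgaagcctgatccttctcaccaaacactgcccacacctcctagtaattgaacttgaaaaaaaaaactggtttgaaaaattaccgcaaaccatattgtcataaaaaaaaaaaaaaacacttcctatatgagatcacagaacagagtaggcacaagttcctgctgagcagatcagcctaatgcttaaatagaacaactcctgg

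The match in the Il2ra window begins 201 bases before the start site, and the capitals span 2 overlapping match positions when both strands are read. The outline is common: 50.8% of the 32841 RefSeq windows of this length hold it, as do 6 of the 10 windows available for 8 of the listed genes. The paired TTC and GAA elements written TTCNNNGAA, bound by STAT5, were found in 8.3% of all windows and in 1 of those 10, that of Il7r. The wider spacing TTCNNNNGAA, bound by STAT6, was found in 6.95% of all windows and in none of the 10. These matches describe letters in the windows and carry no measurement of binding.

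Il2ra (probe set 10469278) had the largest difference of the 8 measured genes. Its log2 signals were 8.74, 8.90 and 8.69 on naive-donor arrays 1 to 3 and 9.38, 9.45 and 9.23 on UV-donor arrays 1 to 3. The lowest UV-donor value lay above the highest naive-donor value, so the groups did not overlap. The group means were 8.78 ± 0.11 and 9.35 ± 0.11 (SD, n = 3 each), a log2 difference of 0.57 (SE 0.08, 95% interval 0.40 to 0.75), which is 1.49-fold higher signal in the UV-donor group (interval 1.32 to 1.68). This difference, with a limma adjusted p = 0.0387 over all tested genes, is what brought the family into view, so the family was chosen by this measured value and it is given as a description, not as a test.

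Among all 13956 tested genes, 0.172% passed an adjusted p under 0.05, all in the higher direction at this setting, and the groups did not overlap for 21.8%, with the UV-donor arrays higher for 12.4% and lower for 9.37%. Il2ra ranked 20th of the 24 called genes by p and 18th of them by the size of the difference. It was 1 of the 7 tested members to be called, and no reading is drawn from that count because the list was assembled with the call known. Leaving out arrays 1 at a time kept the Il2ra difference between 0.53 and 0.63, but its call was lost without naive-donor replicate 1 (0.56), naive-donor replicate 3 (0.53), UV-donor replicate 1 (0.56), UV-donor replicate 2 (0.53) or UV-donor replicate 3 (0.63). The call held without naive-donor replicate 2, where the difference was 0.63.

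**Figure D1:**
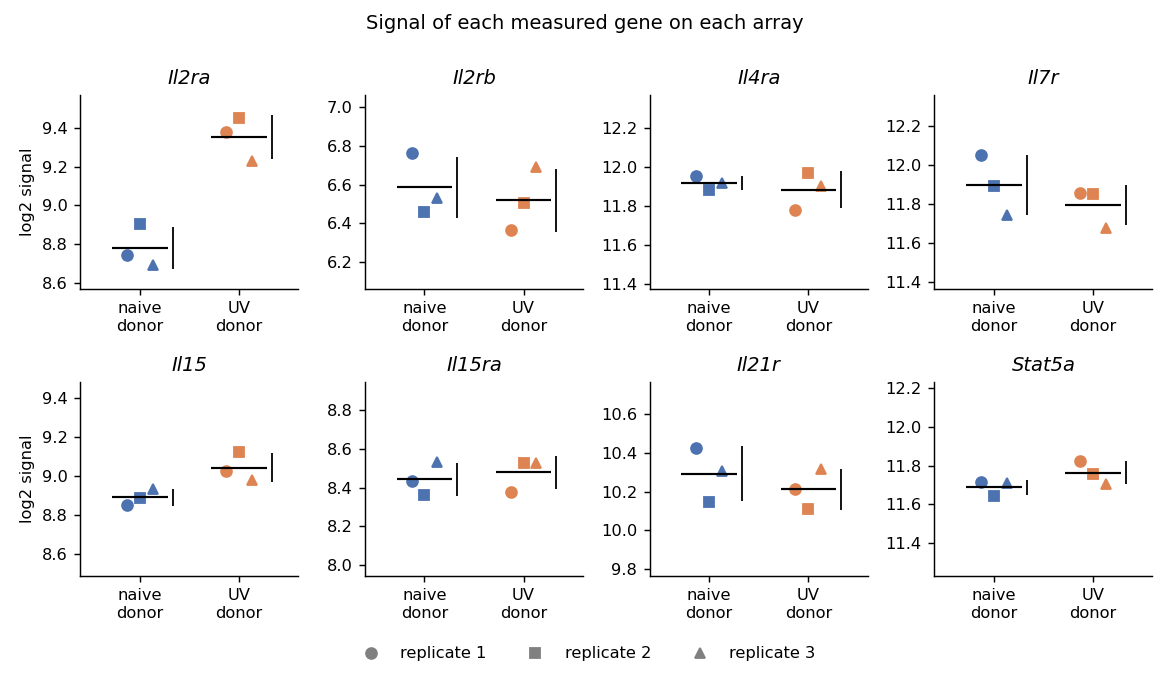
Log2 signal of the 8 measured genes on each of 6 arrays, by donor group; marker shape gives the replicate number, horizontal lines are group means and the vertical line beside each group is ± 1 SD (n = 3). Every panel spans 1 log2 unit. Il2ra groups are separated by the widest gap (8.69 to 8.90 against 9.23 to 9.45), Il15 groups by a narrow one (8.85 to 8.93 against 8.98 to 9.12), and the other 6 genes overlap.

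The groups overlapped for the signalling partner of Il2ra. Il2rb (probe set 10430344), the beta chain shared by the IL-2 and IL-15 receptors, had signals of 6.76, 6.46 and 6.53 on naive-donor arrays and 6.36, 6.51 and 6.69 on UV-donor arrays. Every UV-donor value but that of replicate 1 lay inside the naive-donor range, and the difference was -0.07 (SE 0.10, 95% interval -0.30 to 0.16, from a fit without the dim filter). Its mean signal was below the filter, and its spread within groups (pooled SD 0.16) was the widest of the 8 genes.

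Differences in the IL-15 genes were smaller in value than that of Il2ra. Il15 (probe set 10579958), which encodes the cytokine itself, had signals of 8.85, 8.89 and 8.93 on naive-donor arrays and 9.03, 9.12 and 8.98 on UV-donor arrays. All UV-donor values were above all naive-donor values, by a small margin, a separation in this direction that 12.4% of all tested genes shared. The Il15 difference was 0.15 (SE 0.05, 95% interval 0.03 to 0.28), or 1.11-fold, and it did not pass the threshold over all genes. Il15ra (probe set 10469289), the chain that holds IL-15 for presentation, had 8.43, 8.36 and 8.53 against 8.38, 8.53 and 8.53, overlapping groups with a difference of 0.04 (SE 0.06, 95% interval -0.11 to 0.18).

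The receptor chains for IL-4, IL-7 and IL-21 had overlapping groups with slightly lower UV-donor means. Il4ra (probe set 10557326) had signals of 11.95, 11.88 and 11.92 in the naive-donor group and 11.78, 11.97 and 11.90 in the UV-donor group. The difference of -0.03 (SE 0.06, 95% interval -0.17 to 0.10) was smaller than the spread between UV-donor arrays (SD 0.10), and its sign turned when array medians were centred. For this receptor of the IL-4 added to the cultures, the ends of the interval correspond to changes of -11.0% and 7.42%.

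Il7r (probe set 10427628), the IL-7 receptor alpha chain, had 12.05, 11.89 and 11.75 on naive-donor arrays and 11.85, 11.85 and 11.68 on UV-donor arrays. The difference was -0.10 (SE 0.09, 95% interval -0.30 to 0.09), less than the SD within the naive-donor group of 0.15. Il21r (probe set 10557342), which lies next to Il4ra on chromosome 7, had 10.43, 10.15 and 10.31 against 10.21, 10.11 and 10.32, a difference of -0.08 (SE 0.08, 95% interval -0.27 to 0.11). For both genes the groups overlapped.

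Stat5a (probe set 10381172), the transcription factor at the end of this pathway, had 11.71, 11.64 and 11.71 on naive-donor arrays and 11.82, 11.76 and 11.70 on UV-donor arrays. UV-donor replicate 3 lay within the naive-donor range, and the difference was 0.07 (SE 0.05, 95% interval -0.04 to 0.19). Within groups Stat5a was the steadiest of the 8 genes, with a pooled SD of 0.05, against 0.11 for Il2ra and a median of 0.07 over all tested genes. Counted together, 4 of the 8 measured genes had higher and 4 lower UV-donor means, with a median difference of 0.001. Among the 7 tested members, which exclude Il2rb, 4 were higher and 3 lower. Their median difference was 0.04, beside 0.002 over all tested genes.

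The remaining genes of the pathway, 92 in 7 lists drawn up from known roles, held no call. Of the 75 that were tested, 0 were called by limma at the all-gene threshold that 0.172% of all tested genes passed, and the smallest adjusted p was 0.157. Before adjustment, limma gave p under 0.05 for 8 genes in the higher and 2 in the lower direction, or 10.7% and 2.67%, beside 9.6% and 5.49% of all tested genes. UV-donor means were higher for 52 of the 75, or 69.3%, beside 50.6% of all tested genes, and their median difference was 0.02. These shares and the list medians were not recomputed on renormalized values. The part of the wider interquartile range of UV-donor arrays in them was not tested.

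The ligands gave little signal. Il2, Il4, Il7, Il21 and Tslp were below the dim filter, so the cytokine that Il2ra binds was not tested here. The 2 cytokines that passed, Il9 and Il13, differed by -0.02 and -0.09 with overlapping groups. Of 7 tested receptor chains of related cytokines, 2 had higher and 5 lower values, with a median of -0.04. Il9r, a further partner of the common gamma chain, had the smallest p, at 7.28, 7.23 and 7.34 against 7.15, 7.07 and 7.19, a difference of -0.14 (SE 0.05, limma adjusted p = 0.268). The GM-CSF receptor chain Csf2ra differed by -0.08 and the IL-3 receptor chain Il3ra by -0.07.

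**Figure D2:**
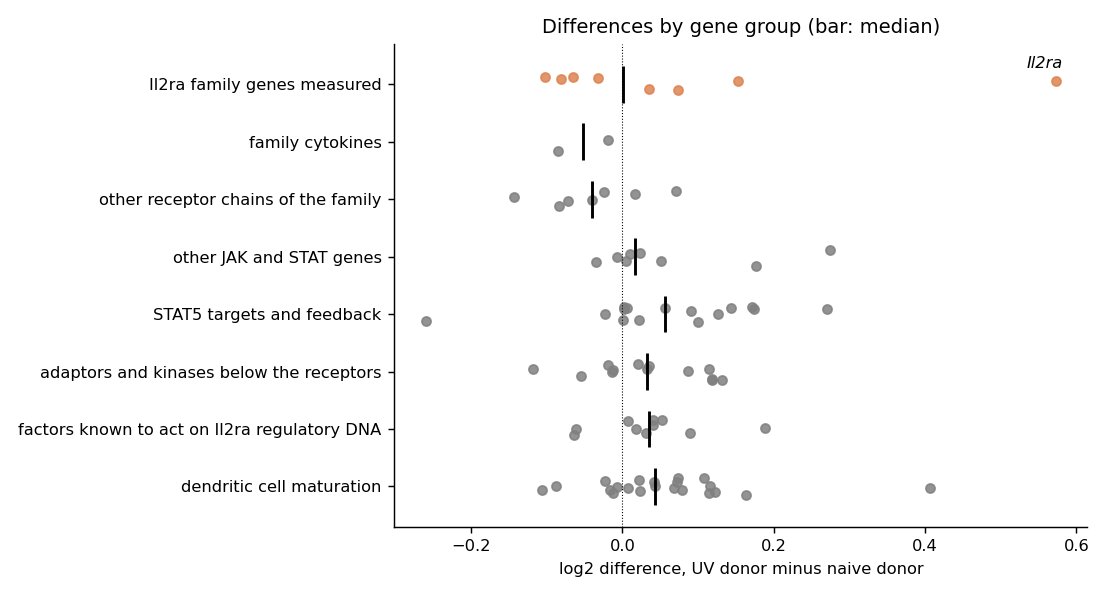
Log2 differences, UV donor minus naive donor, of single genes (points) in the Il2ra family and in 7 lists of related genes, with the median of each as a black bar; points are spread vertically only for legibility and Il2rb, below the dim filter, is included in the top row. Il2ra at 0.57 lies to the right of every other point, the next being Fscn1 at 0.41, and list medians lie between -0.05 and 0.06.

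Kinases and STAT factors held no call. Of 8 tested JAK and STAT genes outside the member list, 6 had higher and 2 lower values, with a median of 0.02. Stat4 had the largest difference, 0.27 (SE 0.12, limma adjusted p = 0.338), followed by the kinase Tyk2 at 0.18, and Jak2, the kinase of the GM-CSF receptor, at 0.05. Stat5b, the close relative of Stat5a, differed by 0.004 and Stat6, the factor activated by IL-4, by -0.03; these were picked out for their roles and lie outside the rule for named genes.

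Genes listed as STAT5 targets or feedback genes had mostly higher values and no call. UV-donor means were higher for 13 of the 15 genes tested, beside 50.6% of all tested genes, with a median difference of 0.06. An unadjusted limma p under 0.05 was found for 3 in this direction and 1 in the other, beside 9.6% and 5.49% of all tested genes. Myc, a growth regulator, had 11.11, 11.14 and 10.95 on naive-donor arrays and 11.32, 11.27 and 11.43 on UV-donor arrays, without overlap, a difference of 0.27 (SE 0.07, limma adjusted p = 0.157). The phosphatase Ptpn6 differed by 0.17 and the feedback inhibitor Socs1 by 0.13. The survival gene Bcl2 had the lowest value of the list, -0.26 (SE 0.11, limma adjusted p = 0.305), with overlapping groups, and is named after its value was seen. Cish, a feedback gene induced through STAT5 and outside the naming rule, differed by 0.006. Also outside that rule, Pim1 (0.002), Ccnd2 (0.001) and Ptpn2 (0.003) had very small differences that count as higher. Socs2 differed by -0.02.

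Signalling adaptors below the receptors had 8 higher and 5 lower values among 13 tested, with a median of 0.03, and the genes of smallest p were the lipid kinase subunit Pik3cd (difference 0.13), the adaptor Grb2 (difference 0.11) and the exchange factor Sos1 (difference -0.12). Among 10 tested factors known to act on regulatory DNA of Il2ra, 8 had higher values, with a median of 0.04. Nfatc1 had 9.75, 9.78 and 9.82 against 10.02, 9.94 and 9.96, a difference of 0.19 (SE 0.05, limma adjusted p = 0.158). Runx1 differed by 0.05 and Foxp3 by -0.06.

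Dendritic cell maturation genes, listed because CD25 accompanies activation, had 15 higher and 6 lower values among 21 tested, with a median of 0.04 and 0 calls. Fscn1, an actin bundler of mature dendritic cells, differed by 0.41 (SE 0.13, limma adjusted p = 0.224), with values of 10.46, 10.39 and 10.12 against 11.02, 10.51 and 10.66. The signalling adaptor Traf1 differed by 0.16 and the NF-kB subunit Relb by 0.12.

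On chromosome 2, Il2ra lies between Rbm17 and Il15ra, and 1 of the 8 tested genes around it was called, beside 0.172% of all tested genes. No reading is drawn from a count of 1, and a shared effect on this region was not tested. Prkcq, which encodes protein kinase C theta, a kinase of antigen receptor signalling, is the third measured gene on the Rbm17 side. It had 7.78, 7.75 and 7.95 on naive-donor arrays and 8.42, 8.53 and 8.46 on UV-donor arrays, without overlap, and rose by 0.64 (SE 0.06, limma adjusted p = 0.0199). Without naive-donor replicate 1 (0.62), UV-donor replicate 2 (0.61) or UV-donor replicate 3 (0.65) the Prkcq call was lost.

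The genes between Prkcq and Il2ra were not called. Pfkfb3, a regulator of glycolysis, had 10.37, 10.21 and 10.33 against 10.08, 10.43 and 10.33, a difference of -0.02 (95% interval -0.23 to 0.18), and the splicing factor Rbm17 differed by 0.01 (95% interval -0.09 to 0.12). On the other side Fbh1, a DNA helicase, differed by 0.02, Ankrd16 by -0.02 and Mindy3 by 0.11. Sfmbt2, beyond Prkcq, differed by 0.003, and Itih5 and Itga8 were below the dim filter. Gene order was read from the RefSeq table and distances were not used.

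**Figure D3:**
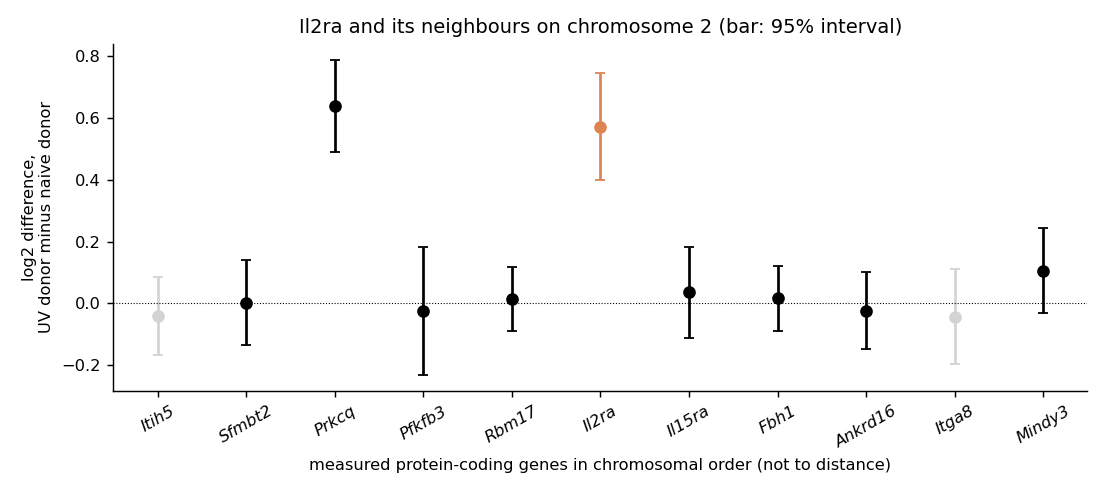
Log2 differences, UV donor minus naive donor, of Il2ra (orange) and the 5 measured protein-coding genes on each side in chromosomal order, with 95% intervals from limma; grey points lie below the dim filter. Prkcq at 0.64 and Il2ra at 0.57 stand apart from the other 9 genes, which lie between -0.04 and 0.11. Whether the Prkcq and Il2ra differences are related was not tested.

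The genes whose profile over the 6 arrays was most like that of Il2ra were found by the root-mean-square distance between profiles, each centred on its own mean. They were Pglyrp1, a bacterial cell wall binding protein (0.042 log2 units), Ffar2, a receptor for short-chain fatty acids (0.045), Fgf23, a hormone of phosphate balance (0.046), Adgre1, a macrophage surface receptor (0.047), and Gpr183, a receptor for oxysterols (0.073). In these 5 genes, as in Il2ra, naive-donor replicate 2 was the highest naive-donor array, UV-donor replicate 2 the highest UV-donor array and UV-donor replicate 3 the lowest UV-donor array. Among the other measured members the nearest to Il2ra was Il15, at 0.22, and the farthest Il2rb, at 0.38. The 5 genes were chosen by their distance to Il2ra over these same arrays, so the shared order of replicates follows largely from that choice. The profiles also contain the group difference itself, so likeness here is a description over 6 arrays.

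**Figure D4:**
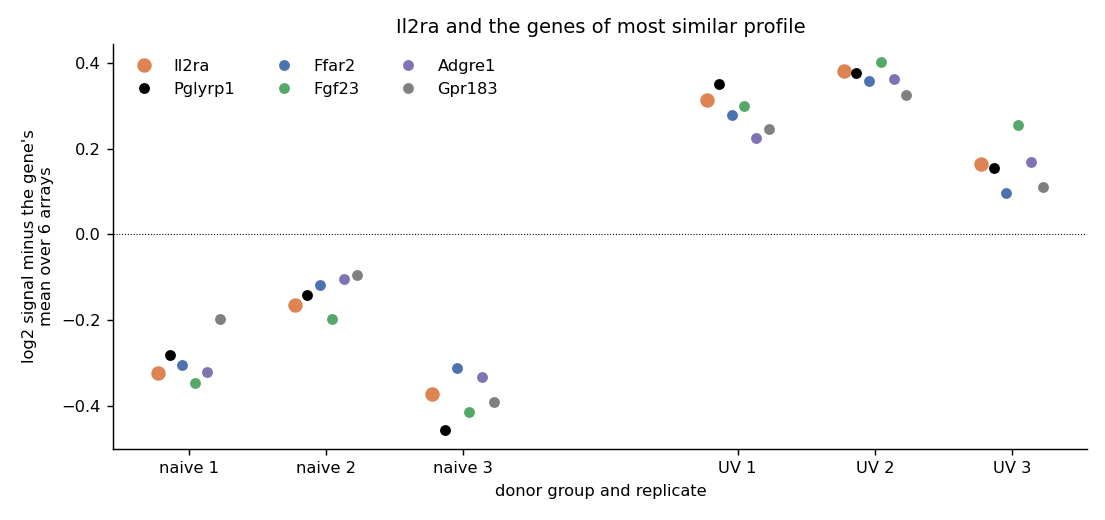
Log2 signal minus each gene's own mean, on 6 arrays, for Il2ra (large orange points) and the 5 genes of smallest root-mean-square distance to it (0.042 to 0.073 log2 units). All 6 genes are below 0 on the naive-donor arrays and above 0 on the UV-donor arrays, and all are highest on UV-donor replicate 2. The choice by smallest distance favours such a shared pattern.

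Markers of other cells that carry CD25 or could be present in the preparations were summed on the linear signal scale. For T and NK cells the 14 measured markers summed to 1609 to 1692 on naive-donor arrays and 1717 to 1796 on UV-donor arrays, without overlap, with 6 of 9 tested markers higher and 0 called. Their defining genes Cd3d, Cd3g and Cd247 were below the dim filter. Cd3e ran from 7.18 to 7.48 on all arrays with a difference of 0.07. Thy1 had the largest difference at 0.44, with overlapping groups (7.72, 8.14 and 7.69 against 8.09, 8.44 and 8.33). The separation of the T and NK sums depended on Thy1, as these sums overlap once its signal is taken out. Zap70, at -0.11, was the 1 tested T and NK marker whose groups did not overlap, with lower UV-donor values, as for 9.37% of all tested genes. For regulatory T cells the 8 measured markers summed to 2025 to 2310 against 2309 to 2371, an overlap at the edge. Of 7 tested, 5 were higher and 0 called. The groups did not overlap for 3 with higher and 0 with lower UV-donor values, beside 12.4% and 9.37% of all tested genes. Among these 3 were Tnfrsf18 (difference 0.29) and Ikzf2 (difference 0.18), the genes of smallest p. Foxp3, their defining factor, ran from 7.20 to 7.34, and Ctla4 was below the filter. The largest difference was a lower value, that of Gpr83 (-0.37), named after its value was seen.

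The summed markers of other lineages known to carry CD25 overlapped between groups. Marrow B lineage markers summed to 1608 to 1872 against 1495 to 2087, with 2 of 5 tested higher (Igll1 0.09, Cd79b 0.06), the largest difference in Vpreb3 (-0.10, named after its value was seen), and with Cd79a, Ebf1, Vpreb1, Rag1, Rag2 and Dntt below the filter. Type 2 innate lymphoid markers summed to 788 to 812 against 762 to 797, with 0 of 3 tested higher (Rora -0.06, Bcl11b -0.03) and Gata3 below the filter. Basophil and mast cell markers summed to 903 to 1017 against 980 to 1062, with 4 of 5 tested higher (Gata2 0.12, Kit 0.19) and Mcpt8, Cpa3, Fcer1a, Ms4a2 and Cma1 below the filter.

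Summed myeloid markers were separated between the groups in the direction of Il2ra, those of dendritic cells by a narrow gap that depended on Cd209a. Neutrophil and precursor markers summed to 13643 to 14158 on naive-donor arrays and 17491 to 17900 on UV-donor arrays. Of 14 tested, 11 were higher, with Ltf (0.54) and S100a8 (0.77) called, and the defining gene Ly6g differed by 0.88 without a call. In this list the groups did not overlap for 8 genes with higher and 1 with lower UV-donor values, beside 12.4% and 9.37% of all tested genes. The calls in this paragraph stand beside 0.172% of all tested genes, and the lists were chosen with earlier results known. Macrophage markers summed to 19693 to 20112 against 21122 to 21613, with 6 of 9 tested higher, C1qb (0.63) called and Adgre1 at 0.51. Dendritic cell markers summed to 57339 to 60675 against 60904 to 61862, a gap narrower than the spread of the naive-donor sums. Once the signal of Cd209a is taken out, the dendritic cell sums overlap. Of the 11 dendritic cell markers tested, 8 were higher, with Cd209a (0.59) called and Ciita at 0.49. The defining gene Itgax differed by -0.04, with overlapping groups. The part of these marker differences in the Il2ra difference was not tested, and in RNA of whole preparations more cells of a type and more RNA per cell cannot be told apart.

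**Figure D5:**
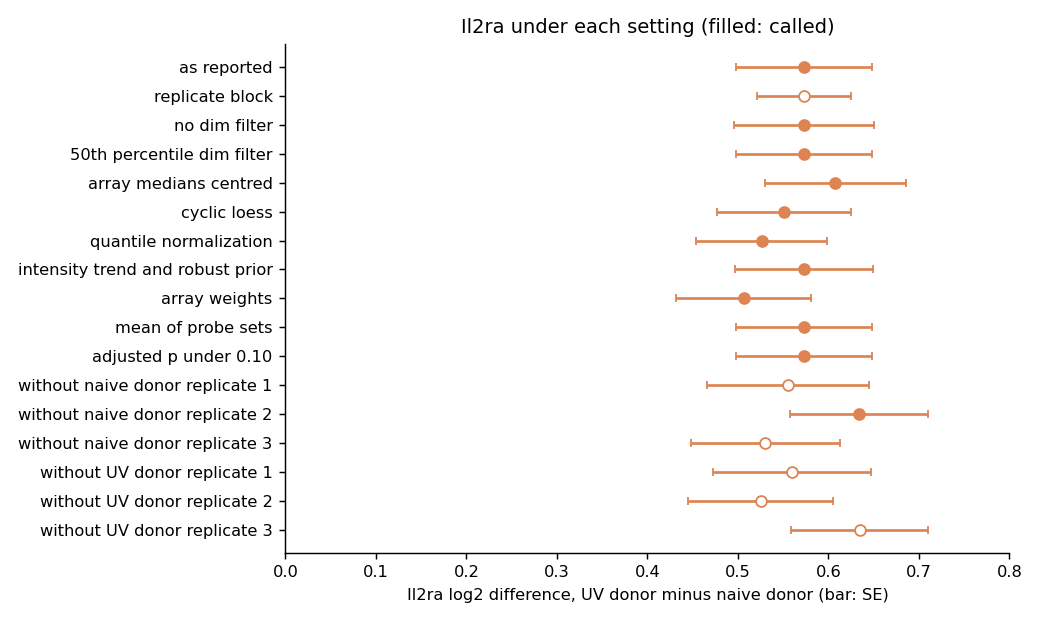
Il2ra log2 difference, UV donor minus naive donor, with its SE under the reported setting and 16 alternatives; filled points were called and open points were not. All differences lie between 0.51 and 0.63, and the open points are the replicate block and 5 of the 6 fits that leave out 1 array.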

How the data were processed

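The authors deposited log2 signals, 1 per probe set and array; their scale was read from the deposited values. RMA, oligo and limma are named without versions or summary level per the submitters' processing notes. Values were used as deposited. Gene names came from the platform annotation: 21789 probe sets had 1 symbol, 1621 several and 12146 were not listed, of 35556. Only 1-symbol probe sets were used, 21698 of them matched by identifier to a RefSeq table of GRCm38.p6. The probe set with the highest mean stood for each of 19938 genes, and dim genes, under the 30th percentile of mean signal, were removed, leaving 13956. Promoter windows are RefSeq's.

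The UV-donor minus naive-donor difference was fitted in R 4.3.3 with limma 3.58.1 (lmFit, eBayes, two-sided), with Benjamini-Hochberg adjustment over all tested genes and a call at adjusted p under 0.05. An exact permutation test of 3 against 3 cannot give a p below 0.1 and was not used. The test was tried on simulated data first. The number of arrays limits the precision. Scan dates and batches are not given in these sources.

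Members and lists were chosen with earlier results of these data known. Named genes were the members, the 3 genes of smallest p per pathway list and 2 per marker list, some defining markers, 5 measured neighbours on each side of Il2ra and the 5 genes of most similar profile. Alternatives were a replicate block, other dim filters, quantile normalization, cyclic loess, centred medians, array weights, a robust prior with intensity trend, mean of probe sets, another threshold and leaving out each array. Figures were drawn with matplotlib 3.10.9.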

Additional observations from a re-analysis of the deposited data

How the results depend on the processing

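The Il2ra difference was positive in all 16 alternatives and called in 10 of them. Some of these outcomes were fixed beforehand. The replicate block, the other dim filters and the intensity trend with robust prior cannot change the difference. Neither can the looser threshold, nor the mean of probe sets for a gene with 1 probe set. All of these left it at 0.57, and a threshold of 0.10 cannot lose a call made at 0.05. The Il2ra difference was 0.51 to 0.61 in the 10 alternatives that kept all arrays, with limma adjusted p-values of 0.0202 to 0.069. With single arrays left out it was 0.53 to 0.63, with limma adjusted p-values of 0.0421 to 0.195. With the replicate block it was 0.57 and not called (limma adjusted p = 0.069), as was Prkcq at 0.64 (limma adjusted p = 0.069). Same-numbered arrays did not deviate together (correlations of -0.13, -0.22 and 0.15), and not every array correlated best with its own number. The labels give no shared source. With 3 arrays in each group these correlations cannot decide whether the numbers pair the arrays. The SE of the Il2ra difference was 0.051 with the block and 0.076 without it. With the block the SE was also lower for Il7r, Il15ra and Il21r, but higher for Il2rb, Il4ra, Il15 and Stat5a. With that block limma called 0 genes, while an unadjusted p under 0.05 was found for 1286 genes in the higher and 666 in the lower direction.

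The count of 24 called genes was 43 with array medians centred, 45 with an intensity trend and robust prior, 43 with array weights, 70 at an adjusted p under 0.10, and 1 to 32 with single arrays left out. Lower genes among these numbered 9 at an adjusted p under 0.10, 4 with array weights, 3 with the intensity trend and robust prior and 1 without UV-donor replicate 1, and quantile normalization also gave 1. The cause was not tested, other than that fewer arrays entered the fit without UV-donor replicate 1. No gene of the 7 pathway lists was called in any of the 16 alternatives. Signs turned for Il2rb without naive-donor replicate 1 (0.02) or UV-donor replicate 1 (0.01), for Il4ra with centred medians (0.002) or without UV-donor replicate 1 (0.02), and for Il15ra without naive-donor replicate 2 (-0.005). Il7r, Il15, Il21r and Stat5a kept their sign in every alternative, and none of the members other than Il2ra was called in any, but without single arrays Il7r ran from -0.18 to -0.02, Il21r from -0.15 to -0.01, Stat5a from 0.04 to 0.10 and Il15 from 0.11 to 0.19. With centred medians the median gene differed by 0.04.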
